A study of Arabidopsis thaliana with 6 samples.

Results

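Class III peroxidases are the secreted haem peroxidases of plants, and 60 of their genes, given by AGI code, were followed here among the 31276 genes of the expression table. The published numbering of the Arabidopsis family runs to 73 genes (PRX1 to PRX73), so 13 of its genes were not members. All 60 codes were in the table. The RNA-seq libraries came from Arabidopsis thaliana Col-0, the standard laboratory accession, with no transgene or mutation named in the labels. Hypocotyls, the embryonic stems, were excised from seedlings 1 week old. Tissue was taken at once (day 0, 3 libraries) or after 7 days on callus-inducing medium, on which cut tissue forms a mass of dividing cells (day 7, 3 libraries). The agents in the medium are not given in the sources used here, and the sample labels call the tissue of all 6 libraries callus although the day 0 tissue was collected right after cutting.

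These enzymes use hydrogen peroxide to oxidise phenolic substrates in the cell wall. In that way they join lignin monomers and cross-link wall polymers, which stiffens the wall, and they can also make reactive oxygen species that loosen it. Different members are known for the Casparian strip of the root endodermis, for lignin of fibres and xylem, for root hair growth and for the oxidative burst against microbes. The comparison of the days asks which of these genes were transcribed in the fresh explant and which in the callus.

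The catalytic centre of these enzymes holds a distal histidine that activates hydrogen peroxide, and its codon marks the members in their coding sequences (RefSeq, TAIR10.1). The pattern searched in the translated sequence was R-x-x-[FYN]-x-D-C-[FVAGIP], where x is any residue and the x before D is the histidine place. All 60 members had a stretch that matched the pattern around this place, and 59 had a histidine codon (CAT or CAC) there. The pattern is broad, so a match by itself is not a test of a member. PRX26, whose rise was the largest in the family, had TCA, which is not a histidine codon. The stretches below run 5′ to 3′ over 45 bases of the coding strand for genes that the results turn on, with the codon at the histidine place in capitals. They show 2 genes with large falls (PRX16 and PRX71), the abundant PRX42, a pair of close relatives that went opposite ways (PRX3 down, PRX30 up) and 2 further genes that rose (PRX17 and PRX26).
PRX16: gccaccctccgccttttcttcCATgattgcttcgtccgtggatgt
PRX71: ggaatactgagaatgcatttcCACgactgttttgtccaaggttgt
PRX42: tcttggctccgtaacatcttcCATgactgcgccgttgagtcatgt
PRX3: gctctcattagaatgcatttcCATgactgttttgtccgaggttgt
PRX30: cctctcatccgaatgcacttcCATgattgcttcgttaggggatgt
PRX17: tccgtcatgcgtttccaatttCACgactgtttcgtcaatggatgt
PRX26: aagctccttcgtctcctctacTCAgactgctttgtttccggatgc

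Most class III peroxidase genes that could be tested were lower in the callus than in the fresh explant. Values were TPM, a transcript abundance per length that is scaled to a fixed total in each library, so levels of different genes can be compared. Of the 60 members, 45 reached 1 TPM in at least 3 libraries and were tested, and 15 did not. Of the 45, 30 fell, 5 rose and 10 did not pass. The test was limma-trend on log2(TPM + 1) over 18608 genes, of which 29.6% passed at a Benjamini-Hochberg adjusted p below 0.05, 16.2% as lower and 13.4% as higher. Of the 45 members, 24 fell by more than 2 on the log2 scale, against 6.38% of all tested genes. When libraries were scaled by median of ratios, which removes differences in overall scale, 33 members fell and 5 rose (64.9% of all tested genes passed, 33.8% as lower and 31.1% as higher). When TPM was rescaled over nuclear protein-coding genes, 30 fell and 8 rose (70.6% of all tested genes passed, 21.0% as lower and 49.6% as higher). The groups did not overlap, with day 7 lower, for 29 of the 45 members, against 19.5% of all tested genes; they did not overlap with day 7 higher for 4 members, against 19.3%. The median log2 difference was -2.42 over the 45 tested members and 0.05 over all tested genes. Of the tested members, PRX3, PRX4, PRX20, PRX45 and PRX47 passed the filter through day 0 alone, and PRX26 and PRX28 through day 7 alone, so these 7 had to differ. PRX7, PRX11, PRX33, PRX39, PRX51, PRX53, PRX54, PRX55, PRX62, PRX72 and PRX73, which fell, reached 1 TPM in 1 day 7 library each. Their 3 day 0 libraries were enough to meet the filter, so it also favoured falls among these genes. The 24 members at 1 TPM or more in every library held 14 of the falls and 3 of the rises. The shares given above are over all tested genes, and none was taken over genes at 1 TPM or more in every library. The members were chosen with earlier results of these data known, so their counts beside these shares are a description and not a test. A lower level in bulk tissue can reflect fewer cells of a type or less RNA per cell, which cannot be told apart here.

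**Figure D1:**
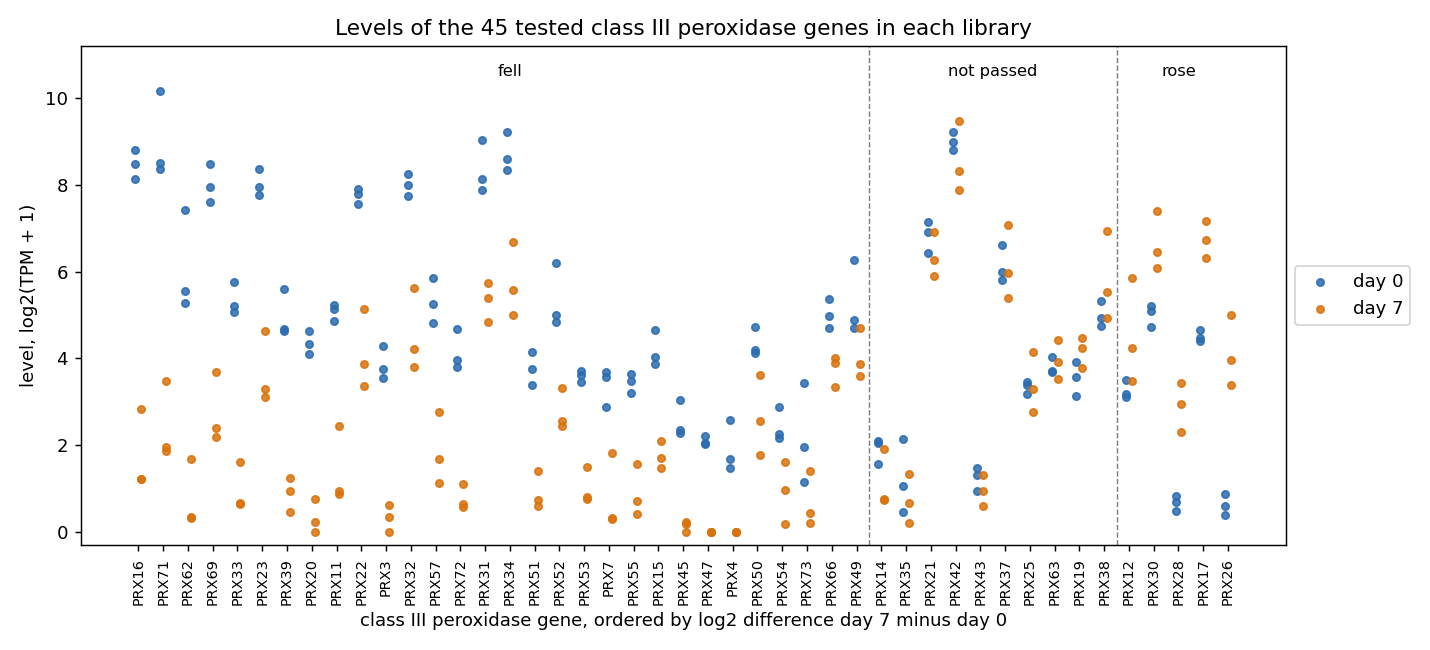
Levels of the 45 tested class III peroxidase genes as log2(TPM + 1) on the vertical axis, with genes ordered by their difference along the horizontal axis; each point is 1 library, 3 for day 0 (blue) and 3 for day 7 (orange), and dashed lines part the 30 genes that fell, the 10 that did not pass and the 5 that rose. PRX16 and PRX71 stand above 8 on this scale in the day 0 libraries and below 4 in the day 7 libraries, whereas the points of PRX42 overlap.

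The transcripts of the family as a whole were less abundant in callus. The 60 members summed to 3048, 5629 and 3625 TPM in day 0 replicates 1, 2 and 3, and to 697, 1935 and 961 TPM in day 7 replicates 1, 2 and 3. No day 7 library reached the lowest day 0 library, and the day 0 mean was 3.42-fold higher. The libraries differ in how much of their total lies on nuclear protein-coding genes (37.6% to 86.4%, with nuclear ribosomal RNA at 4.19% to 38.9%), and of that protein-coding part the members made up 0.512%, 0.651% and 0.51% at day 0 and 0.185%, 0.239% and 0.185% at day 7. The 5 photosynthesis markers, of green tissue, had a summed level of 81.2, 91.5 and 586 TPM in the day 0 libraries and of 7.60 to 15.6 TPM at day 7; their part in the results was not tested. Both sums of the members gave an exact two-sided permutation p of 0.1, the smallest that 3 against 3 libraries allow. TPM keeps no sequencing depth, so depth cannot be stated for any library and values carry no counting interval.

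The largest falls were those of PRX16 and PRX71. PRX16 (AT2G18980, chr2:8233335-8235440, minus strand, TAIR10.1) stood at 278, 449 and 355 TPM in the day 0 libraries and at 1.33, 6.18 and 1.35 TPM in the day 7 libraries. Its mean was 122-fold lower at day 7 (log2 difference -6.71 ± 0.44, SE, limma adjusted p = 2.49e-50). PRX71 (AT5G64120, chr5:25659257-25661007, minus strand), which has been linked to lignin and to the response of the wall to damage, stood at 326, 1137 and 359.6 TPM at day 0. At day 7 it stood at 2.64, 10.1 and 2.89 TPM, 116-fold lower (log2 difference -6.57 ± 0.43, SE, limma adjusted p = 5.23e-49). Every day 7 library lay far below every day 0 library for both genes, and day 0 replicate 2 was the highest for both. Without that library the PRX71 fold was 65.7. Without day 7 replicate 2, the highest day 7 library, the folds were 269 for PRX16 and 219.8 for PRX71. The lowest PRX16 fold with a library left out was 95.8, without day 7 replicate 1. The fit gave every gene the variance of the common mean-variance trend, so these p-values order the genes and carry no information on the spread of a single gene. Replicate 2 was the highest day 7 library in 26 of the 30 members that fell, and it was the day 7 library with the largest nuclear protein-coding share of TPM. The median-of-ratios scale factors of day 7 replicates 1, 2 and 3 were 0.707, 1.56 and 0.973, so the typical gene was also higher in replicate 2.

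PRX62 (AT5G39580), the closest relative of PRX71 in the family (75.5% identical in coding sequence), fell as well. It went from 37.7, 169 and 45.7 TPM to 0.26, 2.20 and 0.27 TPM (log2 difference -5.29 ± 0.44, SE, limma adjusted p = 1.65e-30). PRX69 (AT5G64100), which lies near PRX71 on chromosome 5, went from 195, 358.5 and 246 TPM to 3.58, 11.97 and 4.31 TPM (40.3-fold lower). The gene between them, PRX70 (AT5G64110), is no member; it stood at 5.75, 11.04 and 6.13 TPM at day 0 and at 0.36, 0.57 and 0.39 TPM at day 7. All 3 neighbours were thus low in callus, and in each of them the highest library of each group was replicate 2. The PRX69 fold was 67.6 without day 7 replicate 2 and 32.7 without day 7 replicate 1. PRX62 was 92.6-fold lower with all libraries, 45.8-fold without day 0 replicate 2 and 318-fold without day 7 replicate 2. PRX62 and PRX69 are known together for root hair growth in the cold.

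Members known from immunity fell where they could be tested. PRX34 (AT3G49120) and PRX33 (AT3G49110), a neighbouring pair needed for the apoplastic oxidative burst, differed in level and fell to different extents. PRX34 stood at 325, 594 and 388 TPM at day 0 and at 31.1, 102 and 46.8 TPM at day 7, 7.26-fold lower (log2 difference -2.97 ± 0.43, SE, limma adjusted p = 8.70e-11). PRX33 was at 32.7, 52.9 and 35.7 TPM and at 0.58, 2.07 and 0.57 TPM, 37.7-fold lower. Their relative PRX32 (AT3G32980), 84.2% identical to PRX34, fell 9.79-fold from 257 ± 45.6 to 26.2 ± 19.1 TPM (SD, n = 3 each). Without day 7 replicate 2 these folds were 11.2 for PRX34, 70.3 for PRX33 and 16.8 for PRX32. The lowest folds with a library left out were 5.85 for PRX34 and 7.82 for PRX32, both without day 7 replicate 1. For PRX33 the lowest was 30.5, without day 7 replicate 3. PRX4 (AT1G14540), linked to immunity and to lignin, was low at day 0 (1.78, 5.03 and 2.19 TPM) and listed at 0 in all day 7 libraries, and its neighbour PRX5 stayed below 0.5 TPM in every library. Of the 5 genes listed for the burst and immunity (PRX4, PRX5, PRX33, PRX34 and PRX71) 4 fell and 1 was not tested. PRX4 passed the filter through day 0 alone and so could only fall, and PRX33 reached 1 TPM in 1 day 7 library.

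The tested peroxidases of the Casparian strip, the lignin band of the endodermis, fell. Of the 5 peroxidases needed for it, PRX3, PRX39 and PRX72 fell, and PRX9 and PRX64 stayed below 1 TPM in every library. PRX3 passed the filter through day 0 alone and so could only fall, and PRX39 and PRX72 reached 1 TPM in 1 day 7 library each. PRX39 (AT4G11290) went from 24.8, 47.6 and 23.7 TPM to 0.39, 1.36 and 0.94 TPM (log2 difference -4.08 ± 0.43, SE, limma adjusted p = 3.51e-19). PRX3 (AT1G05260, RCI3, also known from cold and from potassium deficiency) went from 10.8, 18.5 and 12.5 TPM to 0, 0.53 and 0.28 TPM, and PRX72 (AT5G66390) from 17.5 ± 6.29 to 0.747 ± 0.368 TPM (SD, n = 3 each). The scaffold genes CASP1 to CASP5 reached at most 1.27 TPM in any library, whereas MYB36, the transcription factor of this programme, rose from 1.12, 3.92 and 2.22 TPM to 2.92, 12.2 and 4.42 TPM (limma adjusted p = 0.0377), with overlapping groups. That call was lost without day 0 replicate 1, day 0 replicate 3, day 7 replicate 2 or day 7 replicate 3 (limma adjusted p = 0.337, 0.173, 0.243 and 0.101). ESB1, another endodermis marker, went from 2.89, 4.32 and 4.35 TPM to 5.24, 9.38 and 6.84 TPM, without overlap. It did not pass on the deposited scale (limma adjusted p = 0.191). ESB1 passed as higher after median-of-ratios scaling (limma adjusted p = 3.96e-03) and when TPM was rescaled over nuclear protein-coding genes. The summed level of the 7 endodermis markers was 4.79 to 9.01 TPM at day 0 and 8.38 to 21.5 TPM at day 7, and their part in the result was not tested.

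PRX39 and PRX57 are bound in roots by UPB1, a bHLH factor that holds peroxidase genes down where cells leave the meristem, and both fell. PRX57 (AT5G17820) went from 27.1, 57.1 and 37.3 TPM to 1.2, 5.84 and 2.21 TPM, 13.1-fold lower (log2 difference -3.44 ± 0.45, SE, limma adjusted p = 2.89e-13). The PRX57 fold was 23.7 without day 7 replicate 2 and 10.1 without day 7 replicate 1. UPB1 itself stood at 28.2, 28.9 and 29.8 TPM at day 0 and at 18.1, 34.6 and 20.5 TPM at day 7 and did not pass (limma adjusted p = 0.668).

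Genes proposed in lignification moved in both directions. Of 9 listed, 6 fell (PRX4, PRX49, PRX52, PRX66, PRX71 and PRX72), PRX17 rose, PRX25 did not pass and PRX2 was not tested. Of these, PRX4 passed the filter through day 0 alone and so could only fall, and PRX72 reached 1 TPM in 1 day 7 library. PRX52 (AT5G05340), which acts in lignin of the fibres between vascular bundles, went from 30.9, 72.1 and 27.8 TPM to 4.42, 9.06 and 4.92 TPM (7.11-fold lower, log2 difference -2.57 ± 0.44, SE, limma adjusted p = 9.52e-08). PRX66 (AT5G51890) and PRX49 (AT4G36430) fell less, 2.52-fold and 2.60-fold, with limma adjusted p = 0.0171 and 0.0211. The PRX66 call was lost without day 0 replicate 2, day 0 replicate 3 or day 7 replicate 3, where its limma adjusted p was 0.113, 0.115 and 0.0989. The PRX49 call was lost without day 0 replicate 2, day 7 replicate 1 or day 7 replicate 3 (limma adjusted p = 0.324, 0.057 and 0.186), and without day 0 replicate 2 its fold was 1.61 and its log2 difference -0.73 in place of -1.23. The 6 xylem markers summed to 86.7 to 104 TPM at day 0 and to 58.0 to 116 TPM at day 7, and of them VND7, a switch for vessel formation, rose and the other 5 did not pass. VND7 passed the filter through day 7 alone and so could only rise. Its call was lost without day 0 replicate 1, day 0 replicate 3 or day 7 replicate 3 (limma adjusted p = 0.0735, 0.0558 and 0.0972).

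The remaining falls ranged widely in level. PRX31 (AT3G28200), among the 5 most abundant members at day 0, went from 235, 521 and 281 TPM to 27.9, 52.3 and 41.2 TPM (8.55-fold lower). PRX23 (AT2G38390) went from 218, 327 and 246 TPM to 7.69, 23.9 and 8.90 TPM (log2 difference -4.34 ± 0.43, SE, limma adjusted p = 9.17e-22), and its neighbour PRX22 (AT2G38380) from 215 ± 24.5 to 19.1 ± 13.4 TPM (SD, n = 3 each). PRX20 (AT2G35380) went from 16.2, 23.9 and 19.2 TPM to 0.18, 0.71 and 0 TPM. These genes were without overlap between the days. PRX7, PRX11, PRX15, PRX45, PRX47, PRX50, PRX51, PRX53, PRX54 and PRX55 also fell, from day 0 means between 3.29 TPM (PRX47) and 33.0 TPM (PRX11), and PRX47 was listed at 0 in all day 7 libraries. PRX73 (AT5G67400), needed for root hair growth, fell from 1.21, 2.91 and 9.85 TPM to 0.16, 1.67 and 0.35 TPM with overlap between the groups, and its call was lost without day 0 replicate 3, in which it was highest (log2 difference -0.87, limma adjusted p = 0.0743, against -1.50 with all libraries). The 5 root hair markers summed to 21.0 to 42.0 TPM at day 0 and to 1.16 to 8.90 TPM at day 7, and their part in the result was not tested.

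The 5 rises in callus came from low and from moderate levels. PRX26 (AT2G43480, chr2:18052967-18054417, plus strand, TAIR10.1), the gene with TCA at the histidine place shown above, went from 0.52, 0.31 and 0.85 TPM to 9.44, 31.1 and 14.6 TPM, 32.8-fold higher (log2 difference 3.49 ± 0.41, SE, limma adjusted p = 5.80e-16). PRX17 (AT2G22420), which has been linked to lignified tissue and to the MADS factor AGL15, went from 20.2, 21.3 and 24.1 TPM to 78.4, 142 and 105 TPM, 4.95-fold higher (log2 difference 2.22 ± 0.43, SE, limma adjusted p = 3.24e-06). Without day 7 replicate 2 the PRX26 fold was 21.4. In both genes every day 7 library lay above every day 0 library. PRX28 (AT3G03670) went from 0.79, 0.40 and 0.63 TPM to 3.93, 9.74 and 6.79 TPM, and PRX30 (AT3G21770) from 25.3, 33.3 and 36.0 TPM to 67.4, 167 and 86.0 TPM (3.39-fold higher, log2 difference 1.64 ± 0.43, SE, limma adjusted p = 9.73e-04), also without overlap. PRX12 (AT1G71695) went from 7.69, 10.4 and 8.10 TPM to 10.1, 57.0 and 18.0 TPM with overlap, and day 7 replicate 2 was its highest library. Its limma adjusted p was 0.0199 with all libraries and 0.229 without that library, where its log2 difference was 0.58 in place of 1.25; the call was also lost without day 0 replicate 1, day 0 replicate 3 or day 7 replicate 3 (limma adjusted p = 0.111, 0.149 and 0.0836) and with no filter on low values (limma adjusted p = 0.0576).

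The abundant PRX42 was among the 10 tested members that did not pass. PRX42 (AT4G21960, PRXR1), a broadly transcribed member, stood at 449, 598 and 509.8 TPM at day 0 and at 235, 705 and 319 TPM at day 7 (log2 difference -0.46 ± 0.43, SE, limma adjusted p = 0.459). Its closest relative in the family, PRX21 (AT2G37130, 60.6% identical), was at 84.9, 141 and 119 TPM and at 58.5, 119 and 75.8 TPM (limma adjusted p = 0.445). With median-of-ratios scaling both passed as lower, with limma adjusted p = 1.23e-03 for PRX21 and 0.0185 for PRX42 (log2 differences -0.54 and -0.52). PRX42 also passed as lower without day 7 replicate 2 (log2 difference -0.91, limma adjusted p = 0.0134). PRX37 (AT4G08770), which restrains growth and is linked to phenolics in the wall, was at 55.2, 96.7 and 62.9 TPM and at 40.7, 133 and 62.1 TPM, with day means of 71.6 and 78.6 TPM (limma adjusted p = 0.997). Its neighbour PRX38 (AT4G08780) was at 29.4, 25.7 and 38.9 TPM and at 29.4, 122 and 45.2 TPM, and passed as higher without day 7 replicate 1 (limma adjusted p = 0.0123, log2 difference 1.24 in place of 0.80) and when TPM was rescaled over nuclear protein-coding genes. PRX14, PRX19, PRX25, PRX35, PRX43 and PRX63 did not pass either, with means between 0.76 and 17.3 TPM; PRX14 passed as lower with median-of-ratios scaling, and PRX19 and PRX63 as higher when TPM was rescaled over nuclear protein-coding genes. PRX14 also passed as lower without day 0 replicate 2 or day 7 replicate 2 (limma adjusted p = 0.0371 and 1.40e-03), and PRX35 without day 7 replicate 2 (limma adjusted p = 0.019). The rescaling over nuclear protein-coding genes moved the median of all tested genes to 0.42 on the log2 scale, and with it 9229 of all tested genes rose and 3906 fell, against 2497 and 3015 as deposited.

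The make-up of the family's transcripts differed between the days, as shown by shares within a library, which do not depend on how the library was scaled. PRX42 made up 14.7%, 10.6% and 14.1% of the members' TPM at day 0 and 33.8%, 36.4% and 33.2% at day 7. PRX71 went from 10.7%, 20.2% and 9.92% to 0.379%, 0.523% and 0.301%, and PRX16 from 9.12%, 7.97% and 9.8% to 0.191%, 0.319% and 0.14%. The share of PRX34 was alike in the libraries of each day, at 10.6%, 10.6% and 10.7% and at 4.46%, 5.28% and 4.87%. PRX17 and PRX30 together with PRX12, PRX26 and PRX28 went from 1.79%, 1.17% and 1.92% to 24.3%, 21.0% and 24.0%. The days did not overlap in any of these shares, and among the day 0 libraries replicate 2 had the highest share of PRX71. The effective number of members, the inverse of the summed squared shares, was 12.7, 10.8 and 13.0 at day 0 and 6.49, 6.09 and 6.70 at day 7. Each of these measures gave an exact two-sided permutation p of 0.1, the smallest that 3 against 3 libraries allow. The order of the most abundant members was PRX71, PRX42, PRX34, PRX16 and PRX31 by mean TPM at day 0 and PRX42, PRX17, PRX30, PRX21 and PRX37 at day 7. PRX71 led at day 0 through replicate 2 alone: in replicates 1 and 3 PRX42 was higher, and without replicate 2 the order began with PRX42, PRX34 and PRX71 (means of 479, 356 and 343 TPM). The ranges of neighbours in both orders overlapped across libraries, apart from those of PRX42 and PRX17 at day 7. Within every day 0 library PRX42 stood above PRX34 and PRX34 above PRX16. Within every day 7 library PRX42 stood above PRX17 and PRX30 above PRX21. The other neighbours changed order between libraries.

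**Figure D2:**
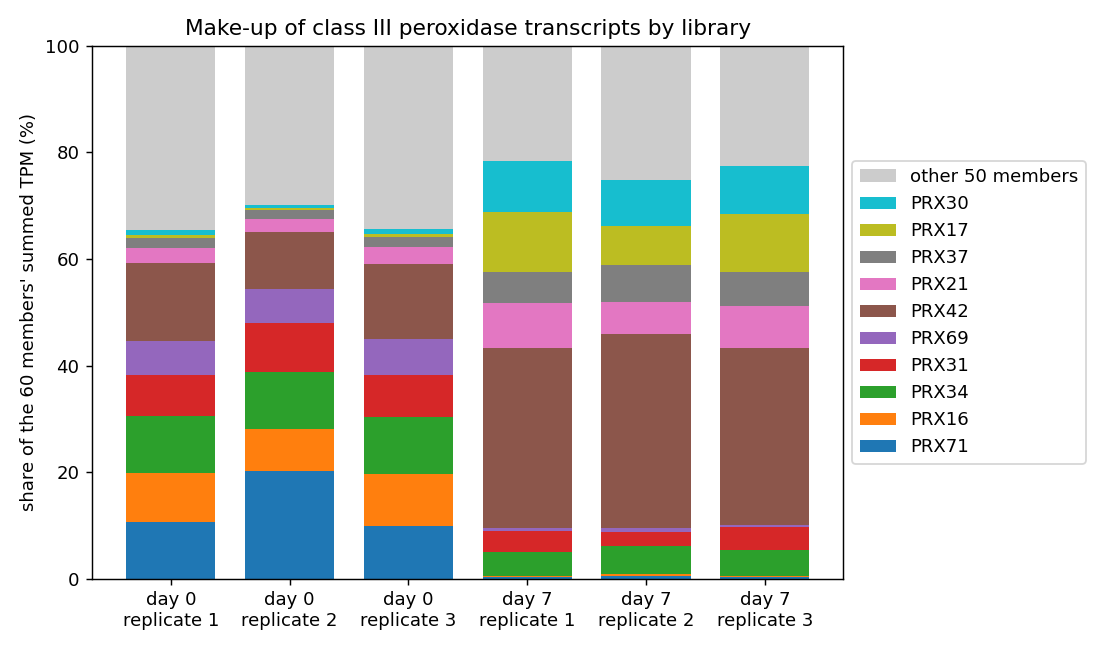
Share of the summed TPM of the 60 class III peroxidase genes (vertical axis, percent) taken by 10 named genes and by the other 50 together, in a stacked bar for each of the 6 libraries. PRX42 fills 33.2% to 36.4% of the bars of day 7 and 10.6% to 14.7% of those of day 0, and PRX71 is the tallest named segment of the bar of day 0 replicate 2 at 20.2%.

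Closely related members did not always move together. Coding sequences of any pair of members were 45.2% to 100% identical, with a median of 51.8%. In 13 pairs both genes were tested and each was the other's closest relative among the members. In 6 of these both genes fell, in 2 neither passed, in 3 a single gene passed and in 2 the genes went opposite ways. The opposite pairs were PRX3, which fell, with PRX30, which rose (67.7% identical), and PRX57, which fell, with PRX28, which rose (59.1% identical). PRX3 passed the filter through day 0 alone and PRX28 through day 7 alone. Each opposite pair thus held a gene whose direction was set by the filter. PRX31 fell while PRX63 (75.3% identical) did not pass, at 12.1, 15.4 and 11.8 TPM and at 10.5, 20.3 and 14.03 TPM.

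Several neighbouring copies are so alike that reads may not tell them apart. PRX1 and PRX2 (AT1G05240 and AT1G05250) had coding sequences 100% identical, and every 50-base window of the PRX2 transcript occurred in another family gene, as did 59.4% of those of PRX1. PRX1 was listed at 0 in all 6 libraries and PRX2 at 0.29, 0.79 and 2.85 TPM and at 0.14, 0.98 and 0.08 TPM. The sources used here do not say how reads that match both copies were assigned, so the values of these 2 genes cannot be read apart. For 10 members, PRX1, PRX2, PRX14, PRX15, PRX33, PRX34, PRX37, PRX38, PRX50 and PRX51, over 5% of such windows were in another family gene, at most 9.31% outside PRX1 and PRX2. For PRX22 and PRX23 the share was 1.42% and 1.72%, and for the other 48 members it was 0.

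Within a library, the ratio of neighbouring genes was compared between the days in 8 pairs. The log2 ratio of PRX33 to PRX34, taken on TPM + 1, went from -3.38 ± 0.10 to -4.78 ± 0.39 (SD, n = 3 each). PRX22 was below PRX23 at day 0 and above it at day 7, with log2 ratios of -0.28 ± 0.16 and 0.44 ± 0.17 (SD, n = 3 each). PRX37 over PRX38 went from 1.15 ± 0.64 to 0.35 ± 0.19 and PRX50 over PRX51 from 0.58 ± 0.53 to 1.72 ± 0.62 (SD, n = 3 each). With the added 1 TPM the days did not overlap in any of the 8, and each gave an exact two-sided permutation p of 0.1, also 0.1 after Benjamini-Hochberg adjustment over the 8, the smallest that the design allows. Many of these genes were near or below 1 TPM at day 7, where the added 1 TPM weighs on the ratio. On TPM itself, a choice made after seeing the data, 6 pairs had no library at 0, and in 5 of them the days still did not overlap. There PRX33 over PRX34 went from -3.41 ± 0.09 to -5.91 ± 0.39 and PRX50 over PRX51 from 0.62 ± 0.56 to 2.61 ± 0.70 (SD, n = 3 each). PRX53 over PRX54 overlapped on TPM itself, at 1.39, 0.91 and 1.70 in the day 0 libraries and at 2.32, -0.17 and -0.32 in the day 7 libraries (exact permutation p = 0.4), so no difference is shown for that pair. PRX2 with PRX3 and PRX4 with PRX5 had libraries at 0 and give no such ratio. PRX3 and PRX4 passed the filter through day 0 alone, so their fall in these ratios was set by the filter. PRX4 and PRX5 were both listed at 0 in all day 7 libraries, so their ratio there comes from the added 1 TPM alone. For these pairs the lack of overlap is not a result of its own.

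**Figure D3:**
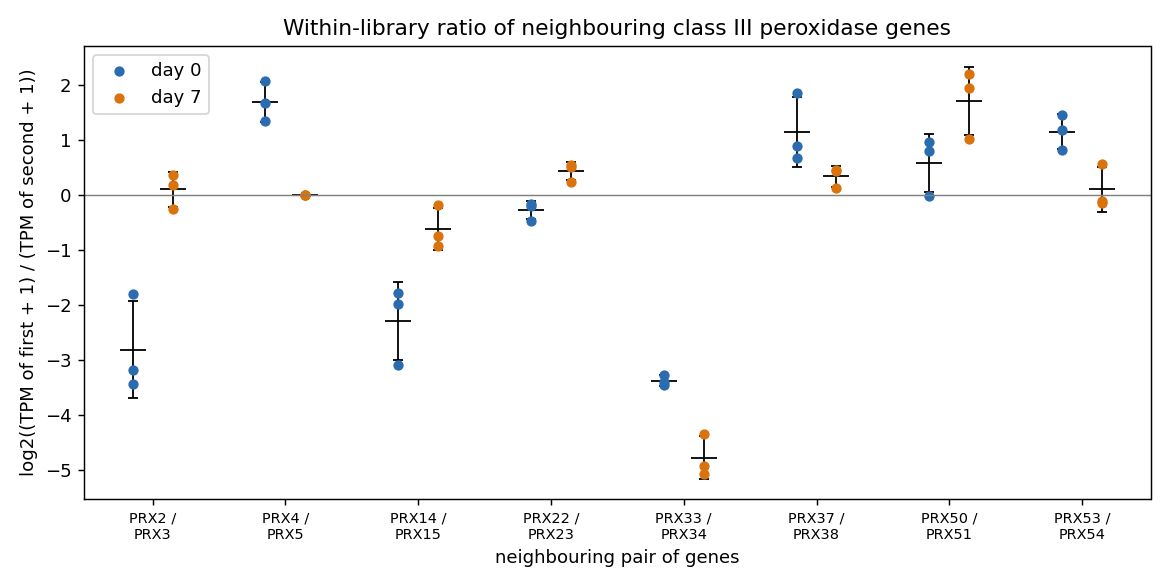
Log2 ratio of TPM + 1 between the genes of 8 neighbouring pairs (vertical axis), with each pair along the horizontal axis; points are the 3 libraries of day 0 (blue) and of day 7 (orange), and black bars are the mean and SD. The added 1 TPM draws ratios of low genes towards 0. The ratio of PRX22 to PRX23 lies below 0 in the day 0 libraries and above 0 in the day 7 libraries, and that of PRX33 to PRX34 is the lowest on both days.

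Upstream windows were searched for 3 short elements, in the 250 bases before each gene's annotated start (RefSeq, TAIR10.1) and on both strands. The W-box of WRKY factors (TTGACC or TTGACT) was in 18 of the 60 members' windows, or 30.0%, and in 28.4% of the windows of 27443 protein-coding genes. It was in 14 of the 30 that fell, 1 of the 5 that rose, 0 of the 10 that did not pass and 3 of the 15 not tested. The auxin response element TGTCTC was in 3 members' windows (5%, against 10.9% of all) and the G-box CACGTG in that of PRX26 alone (1.67%, against 6.49%). No test was made on these counts, and a match is a string in the sequence, not a binding site. The windows of PRX71, with 3 W-boxes, and of its relative PRX62, with 1, are shown as examples of windows with the element. That of PRX26, whose rise was the largest, is shown for its G-box. PRX16, whose fall was the largest, and its closest relative PRX45, which also fell, had 0 W-boxes in their windows. Capitals mark the matched elements, and each window reads 5′ to 3′ on the strand of its gene.
PRX71, chr5:25661008-25661257, minus strand: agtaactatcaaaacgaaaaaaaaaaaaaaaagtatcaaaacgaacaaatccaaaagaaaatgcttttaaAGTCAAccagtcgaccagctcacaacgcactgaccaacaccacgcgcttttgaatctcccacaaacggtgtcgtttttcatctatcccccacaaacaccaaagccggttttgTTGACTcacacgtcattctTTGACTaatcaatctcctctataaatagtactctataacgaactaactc
PRX62, chr5:15849142-15849391, minus strand: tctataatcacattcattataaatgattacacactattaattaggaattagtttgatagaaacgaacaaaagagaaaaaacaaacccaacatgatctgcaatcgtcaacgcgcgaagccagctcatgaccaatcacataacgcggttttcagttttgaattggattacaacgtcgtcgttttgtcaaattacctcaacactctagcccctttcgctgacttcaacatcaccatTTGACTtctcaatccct
PRX26, chr2:18052717-18052966, plus strand: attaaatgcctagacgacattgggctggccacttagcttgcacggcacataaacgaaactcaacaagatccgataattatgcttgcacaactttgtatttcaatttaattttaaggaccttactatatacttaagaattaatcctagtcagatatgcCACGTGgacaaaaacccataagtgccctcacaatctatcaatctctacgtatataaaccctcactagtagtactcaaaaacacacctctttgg

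The same test was read for 3 enzyme groups that act beside the class III peroxidases. In it 16.2% of all tested genes fell and 13.4% rose. Respiratory burst oxidases (RBOH) make the superoxide from which hydrogen peroxide arises, and of 10 genes 4 were tested, of which 3 fell and 1 did not pass. RBOHF (AT1G64060) went from 8.69, 24.4 and 11.7 TPM to 1.91, 4.46 and 1.77 TPM (log2 difference -2.05 ± 0.43, SE, limma adjusted p = 1.87e-05), while RBOHD (AT5G47910) was at 17.6 ± 6.77 and 18.4 ± 9.63 TPM (SD, n = 3 each) and did not pass. RBOHC, the oxidase of root hair growth, fell 6.62-fold from 4.04 ± 2.74 TPM and RBOHE fell 3.42-fold from 8.87 ± 3.23 TPM (SD, n = 3 each). The RBOHC fold was 4.19 without day 0 replicate 2 and 14.96 without day 7 replicate 2. Laccases oxidise lignin monomers with oxygen, and of 17 genes 10 were tested, of which 4 fell (LAC5, LAC7, LAC11 and LAC16), 0 rose and 6 did not pass. LAC7 and LAC16 passed the filter through day 0 alone and so could only fall. Laccases called as lower were 9 after median-of-ratios scaling and 8 without day 7 replicate 2. Calls also grew over all 18608 tested genes, with 33.8% lower after that scaling and 4966 genes lower without that library. LAC7 (AT3G09220) went from 8.31, 19.75 and 15.04 TPM to 0.27, 0.96 and 0.50 TPM, and LAC4 and LAC17, the main laccases of stem lignin, were at 9.03 ± 2.48 and 8.87 ± 2.32 TPM at day 0 and at 6.40 ± 4.04 and 5.16 ± 2.94 TPM at day 7 (SD, n = 3 each). Ascorbate peroxidases are the intracellular class I enzymes, and of 8 genes 6 were tested, of which 2 fell (SAPX and APX5), 0 rose and 4 did not pass. Ascorbate peroxidases called as lower were 0 without day 0 replicate 3 or day 7 replicate 3, 1 without day 0 replicate 2 or day 7 replicate 1, 4 without day 7 replicate 2 and 5 after median-of-ratios scaling. Of all tested genes, 2269 were lower without day 0 replicate 3 and 2104 without day 7 replicate 3. Without day 0 replicate 2 or day 7 replicate 1 they were 2404 and 2558. SAPX was at 132, 220.5 and 168 TPM and at 44.7, 104 and 79.9 TPM. The median log2 differences over tested genes were -1.50 for RBOH, -0.70 for laccases and -0.68 for ascorbate peroxidases, beside the -2.42 of the class III members; no test was made between the groups.

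**Figure D4:**
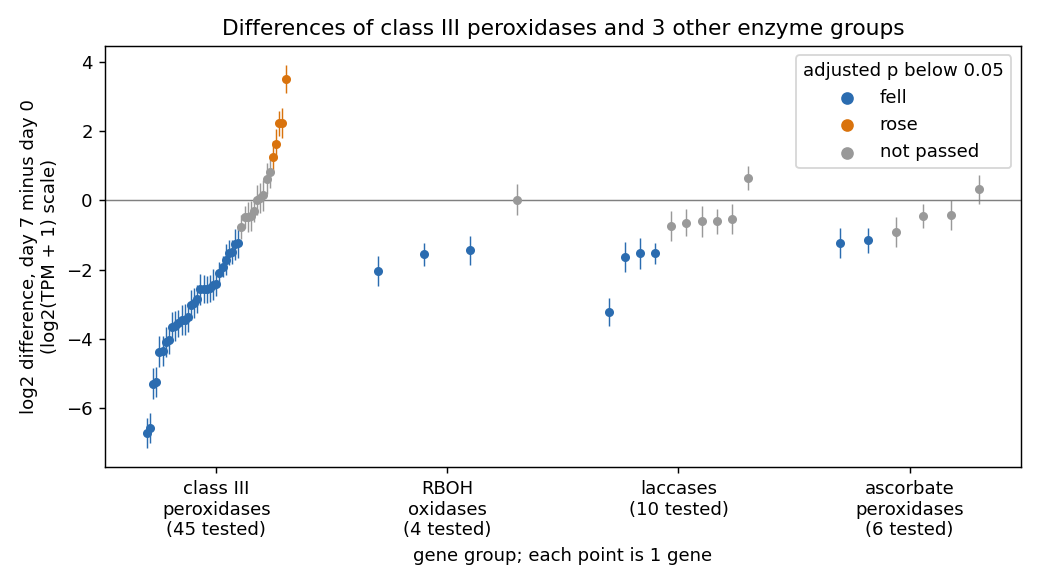
Log2 difference between day 7 and day 0 on the log2(TPM + 1) scale (vertical axis) of each tested gene of 4 enzyme groups, with bars for the SE; blue genes fell, orange genes rose and grey genes did not pass. The class III peroxidases run from -6.71 to 3.49, and the other groups lie between -3.23 (LAC7) and 0.64 (LAC10).

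The 15 members that were not tested reached at most 3.48 TPM in any library. Among them PRX5, PRX8, PRX9, PRX10, PRX24, PRX27, PRX36, PRX56, PRX58 and PRX64 and the copy PRX1, 11 in all, stayed below 1 TPM in every library. PRX59 (AT5G19890) stood at 0.81, 1.48 and 3.48 TPM at day 0 and was listed at 0 in all day 7 libraries. PRX44 (AT4G26010) and PRX60 (AT5G22410), both of root hairs, were at 0.36, 0.83 and 2.79 TPM and at 0.18, 0.94 and 2.17 TPM at day 0, and reached at most 1.21 and 0.25 TPM at day 7. Of the 13 family genes that were no members, 4 were tested (PRX29, PRX48, PRX67 and PRX70) and all 4 fell. These 4 passed the filter through day 0 alone, so they could only fall. The 13 together summed to 15.4 to 21.6 TPM at day 0 and to 0.73 to 2.17 TPM at day 7.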

How the data were processed

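The deposited table held TPM, computed by the authors and given to 2 decimals, for 31276 genes in 6 libraries, 3 at day 0 and 3 at day 7; 0 sample columns were left out. STAR 2.7.10a, RSEM 1.3.1 and build TAIR10 are named in the submitters' processing notes, without roles; annotation, strand and the counting of shared reads are not given in the sources used here. The design text calls the libraries of a day biological replicates, without saying what was separate.

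A gene was tested where 3 or more libraries reached 1 TPM (18608 genes). The days were compared on the deposited scale by limma-trend (limma 3.58.1, R 4.3.3) on log2(TPM + 1). P-values were adjusted over all tested genes (Benjamini-Hochberg, threshold 0.05); folds are ratios of mean TPM. The fit was tested on simulated data. Sums, shares and ratios were compared by exact permutation (scipy 1.17.1). The members and lists were chosen with earlier results of these data known. Members named in full were all 5 rises and the 8 largest falls that passed with a mean of at least 5 TPM in the higher group (the rule allowed up to 8 of each), the 5 most abundant of each day, and examples from each role list; others are named for their calls or as relatives. PRX numbers follow the published family numbering; other names come from the TAIR10.1 gene table. Gene models and sequences were read by AGI code from RefSeq TAIR10.1; the expression table itself gives no coordinates. Coding sequences were aligned end to end with Biopython 1.88 (match 2, mismatch -1, gap opening -5, extension -0.5), and identity is per aligned column. Alternatives were scaling by median of ratios or over nuclear protein-coding genes, a pseudocount of 0.1, no filter, a minimum of 5 TPM, a replicate block, and leaving out each library. Neighbour ratios without the added 1 TPM, and folds with each library left out, were added after seeing the data.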

Additional observations from a re-analysis of the deposited data

How the results depend on the processing

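The 30 falls and 5 rises kept their direction under every alternative run, and all but 4 (PRX12, PRX49, PRX66 and PRX73, whose values are given above) passed in every alternative that tested them. Members counted as risen were 8 with TPM over nuclear protein-coding genes. All tested genes called as risen were 5785 and as fallen 6296 after median-of-ratios scaling, 9229 risen with TPM over nuclear protein-coding genes, and between 1432 (without day 0 replicate 1) and 3660 (without day 7 replicate 1) risen and 2104 (without day 7 replicate 3) and 4966 (without day 7 replicate 2) fallen when single libraries were left out. Fallen laccases were 9 after median-of-ratios scaling, and 4 to 8 without single libraries; 1 laccase and 1 ascorbate peroxidase rose with TPM over nuclear protein-coding genes, and 0 to 1 laccases rose without single libraries. Fallen ascorbate peroxidases were 5 after median-of-ratios scaling, 1 with a minimum of 5 TPM and 0 to 4 without single libraries. In each case the cause was not tested. PRX25 and PRX37, which did not pass, turned to -0.0095 and -0.065 on the log2 scale after median-of-ratios scaling, with or without the block, and ran from -0.30 to 0.38 and from -0.46 to 0.38 without single libraries.

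Replicate numbers are shared between the days. Deviations of same-numbered libraries from their day's mean correlated at 0.097, 0.156 and 0.0316 across genes for replicates 1, 2 and 3. Not every library correlated best with its own number. Such correlations cannot see a shift shared by all genes of a library. The median-of-ratios scale factors had the same order on both days. For replicates 1, 2 and 3 they were 0.777, 1.22 and 0.982 at day 0 and 0.707, 1.56 and 0.973 at day 7. So had the nuclear ribosomal RNA shares, at 18.0%, 4.19% and 12.1% and at 38.9%, 8.44% and 25.3%. Whether the numbers mark pairs cannot be told from these values. With the replicate block 5233 genes rose and 4886 fell (5690 and 6305 after median-of-ratios scaling as well), all 45 tested members kept their calls, and 7 laccases fell and 1 rose (9 fell with the block and that scaling), while 5 ascorbate peroxidases fell with both.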

Other observations

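Within day 0 some members stood apart in a single library. Levels of the root hair genes PRX73, PRX44 and PRX60, of PRX2 and of PRX35 were each highest in replicate 3 among the day 0 libraries, and PRX73 stood there at 9.85 TPM against 1.21 and 2.91 TPM. Of the 5 root hair markers, EXPA7, EXPA18, RSL4 and COW1 were also highest there (5.23, 3.52, 1.96 and 1.36 TPM), whereas RHD6, the most abundant, was highest in replicate 2 (18.2, 33.6 and 29.9 TPM in replicates 1, 2 and 3). The 5 root hair markers summed to 21.0, 41.5 and 42.0 TPM in day 0 replicates 1, 2 and 3 and to 1.16 to 8.90 TPM at day 7. The same library had the most photosynthesis transcripts, with 5 markers summing to 586 TPM against 81.2 and 91.5 TPM, and their part in these levels was not tested.

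PRX71 and PRX62 stood apart in day 0 replicate 2, also after median-of-ratios scaling. Scaled levels of PRX71 were 420, 930 and 366 in day 0 replicates 1, 2 and 3, and those of PRX62 were 48.5, 138 and 46.6. Without that library both kept their calls, with folds of 65.7 and 45.8 in place of 116 and 92.6.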
